A study of Mus musculus with 8 samples.

Results

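The genes that make, use, or remove the bisphosphates of fructose were followed in WT and TKO hearts, 9 in all, namely *Tigar* itself and 8 counterparts: the phosphofructokinase subunits *Pfkm*, *Pfkl*, and *Pfkp*, the 4 bifunctional enzymes *Pfkfb1*, *Pfkfb2*, *Pfkfb3*, and *Pfkfb4*, and *Fbp2*. They were chosen by enzymatic role, with earlier results of these data known, and they are 9 of the 16994 genes in the table of counts. The question was whether loss of *Tigar* was met by a change of its enzymatic counterparts in each region of the heart. RNA came from male mice, and each genotype gave 1 library for each of 4 regions, 8 in total. WT left ventricle and TKO left ventricle stood for the noninfarcted heart, and whether those mice had a sham operation is not given in the sources used here. WT infarct zone, WT border zone, WT remote zone, TKO infarct zone, TKO border zone, and TKO remote zone came from mice in which the left anterior descending coronary artery was permanently tied at 16 weeks of age, with tissue taken 4 weeks later. TKO (label, TIGAR KO) is a whole-body knockout, so the allele was disrupted in the whole animal and not in cardiomyocytes alone. The study's methods name a C57BL/6N line with a EUCOMM *Tigar* allele as the origin of its floxed mice. For TKO they refer to earlier work, and they do not state the strain of the WT mice. Infarct zone RNA was pooled from 3 mice per genotype.

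Phosphofructokinase (PFK) commits fructose phosphate to glycolysis by adding another phosphate, and fructose bisphosphatase removes it. Its strongest activator, the 2,6-bisphosphate of fructose, is made and broken down by the PFKFB enzymes, each of which carries a kinase and a phosphatase in the same chain. TIGAR, a target gene of p53, resembles the phosphatase domain of a PFKFB and lowers the level of that activator. In the heart *Pfkm* is the muscle PFK subunit, *Pfkl* the liver and *Pfkp* the platelet subunit, *Pfkfb2* is known as the heart PFKFB, and *Fbp2* is the muscle fructose bisphosphatase.

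Total counts per library lay between 27429240 and 33799249, and levels are given as CPM, counts relative to the library total after edgeR's TMM scaling. The infarct libraries stood apart in composition, with TMM factors of 1.54 (WT) and 1.26 (TKO) where the other 6 had 0.866 to 0.956. With 1 library per genotype and region no value has a replicate. Ratios between 2 libraries carry an exact 95% interval from their counts, which holds counting error and nothing else. Tests across regions treat the 4 regions as replicates and bear on these regions, not on mice. Whether the zones of a genotype were cut from the same infarcted hearts is not stated, and where zones share hearts the regions are not independent, so that SEs, intervals, and adjusted p-values may understate the spread between mice. The 8 cardiomyocyte markers summed to 44539 CPM in the WT and 42574 CPM in the TKO left ventricle, against 9027 CPM and 19591 CPM in the infarct zone. The WT infarct and border zones also held fast skeletal muscle transcripts that their TKO counterparts nearly lacked. The adipocyte marker *Adipoq* was highest in the WT left ventricle. In bulk tissue, fewer cells of a type and less RNA per cell cannot be told apart.

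*Tigar* (ENSMUSG00000038028) lies on the minus strand of chromosome 6 from 127085116 to 127109557 in GRCm38. In WT hearts it was at 71.7, 25.2, 71.9, and 65.6 CPM in the left ventricle and the infarct, border, and remote zones, the order used for every list of 4 values that follows. In TKO hearts the levels were 1.97, 2.43, 2.66, and 2.89 CPM. Every TKO library lay below every WT library. For the left ventricle the TKO over WT ratio was 0.0275 (95% interval 0.0204 to 0.0363), for the border zone 0.0370 (0.0292 to 0.0464), and for the remote zone 0.0440 (0.0351 to 0.0546). It was highest for the infarct zone, at 0.0966 (0.0767 to 0.120), where the WT level was lower and the TKO level was within the range of the other TKO libraries. Across regions *Tigar* fell by 4.44 on the log2 scale (SE 0.284, adjusted p = 0.006, edgeR's quasi-likelihood test), in 4 of 4 regions. It was 1 of 18 genes called, 0.138% of the 12999 tested. Of these 18 genes 10 were higher and 8 lower in TKO, a split that became 12 and 44 when libraries were scaled by total counts. The call was lost when the border zone (adjusted p = 0.0525) or the remote zone (0.0758) was left out, with differences of -4.33 and -4.42. The residual 51 to 87 counts per TKO library were not resolved by exon. The annotation places the antisense gene *Platr31* at this locus, and whether the counting used strand is not given in the sources used here.

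Among the counterparts, none was called across regions. edgeR called 0 of the 7 that passed the filter on low counts (a mean of at least 1 CPM), with 0 at an unadjusted p under 0.05 where 2109 of 12999 genes had, and the Wald test of DESeq2 called 0 with 2 at an unadjusted p under 0.05, where 2025 genes had. The estimates were small beside that of *Tigar*, and their intervals bound them. For *Pfkm* TKO over WT was 1.34-fold (95% interval 0.979 to 1.82, adjusted p = 0.33), and for *Pfkl* it was 1.15-fold (0.998 to 1.32, adjusted p = 0.312). *Pfkp* had a fold of 0.894 (0.751 to 1.06, adjusted p = 0.459) and *Pfkfb3* of 0.820 (0.574 to 1.17, adjusted p = 0.519). *Pfkfb1* was at 1.22-fold (0.742 to 2.02), *Pfkfb2* at 1.14-fold (0.823 to 1.59), and *Fbp2* at 1.13-fold (0.779 to 1.65), with adjusted p of 0.645, 0.64, and 0.707. The upper bound for *Pfkfb1* and the lower bound for *Pfkfb3* show that a change by about 2.02-fold and to 0.574-fold, respectively, lay within what these 4 regions allow. None of the 7 was called under any of the 11 alternatives tried, and that of *Fbp2* changed sign, to -0.07 on the log2 scale, when the infarct zone was left out.

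**Figure D1:**
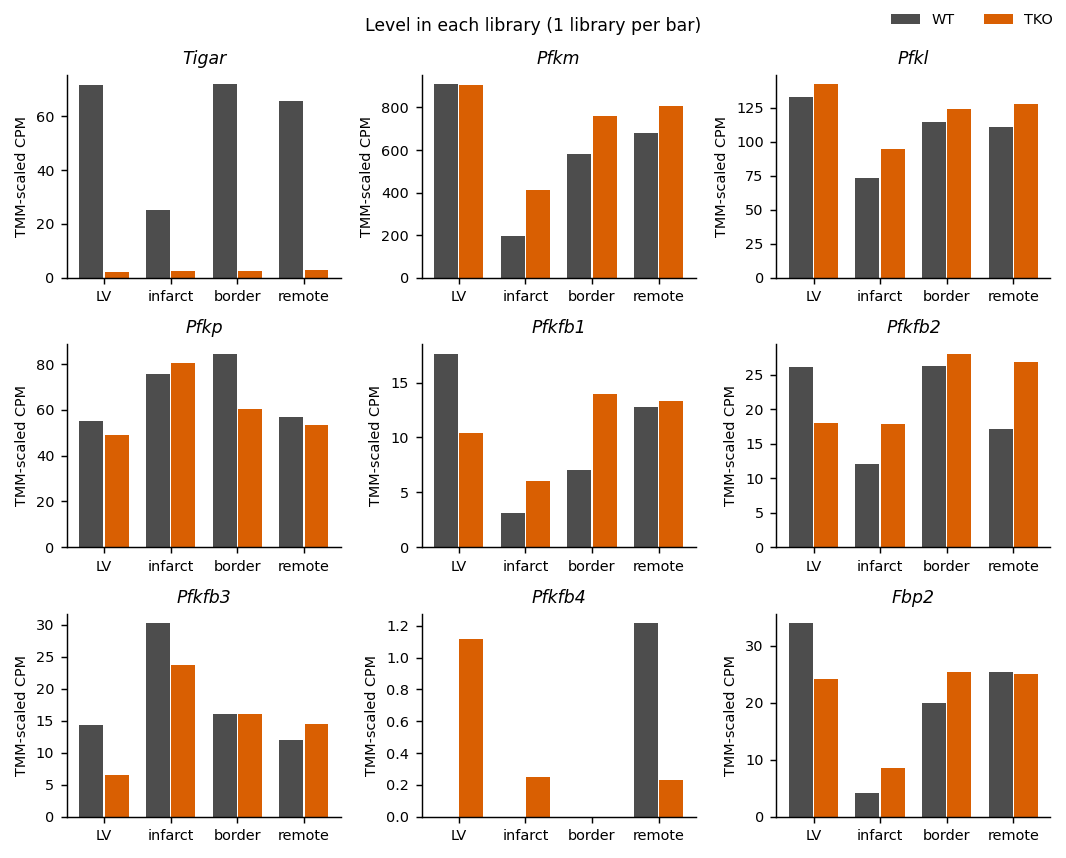
TMM-scaled CPM (vertical axis, a separate scale for each gene) of the 9 genes in each of the 8 libraries, by region, with WT in grey and TKO in orange. Each bar is 1 library, so there are no error bars. *Tigar* is at 1.97 to 2.89 CPM in TKO, while each of the other genes overlaps between the genotypes.

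Of the PFK subunits, *Pfkm* differed most between the genotypes in the infarct zone. *Pfkm* (ENSMUSG00000033065, chromosome 15 from 98092589 to 98132451, plus strand) was at 909 CPM in the WT and 907 CPM in the TKO left ventricle, which made the ratio 0.997 (0.979 to 1.01). Infarct zone levels were 197 CPM in WT and 412 CPM in TKO, a ratio of 2.09 (2.04 to 2.15). With total counts in place of TMM factors they were 304 and 518 CPM, a smaller excess in TKO. The border zone had 583 and 758 CPM (ratio 1.30, 1.28 to 1.33), and the remote zone had 681 and 805 CPM (ratio 1.18, 1.16 to 1.20). *Pfkm* was thus level between genotypes in the left ventricle and higher in TKO in each of the 3 regions of the infarcted heart, most in the infarct zone.

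*Pfkl* (ENSMUSG00000020277, chromosome 10 from 77986947 to 78010083, minus strand) moved in a narrower range. Its WT levels were 133, 73.1, 115, and 111 CPM, and its TKO levels were 142, 94.6, 124, and 127 CPM. The ratio lay between 1.07 in the left ventricle (1.02 to 1.12) and 1.29 in the infarct zone (1.23 to 1.36). TKO was the higher library in 4 of 4 regions, by less than 1.5-fold in each.

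*Pfkp* (ENSMUSG00000021196, chromosome 13 from 6579768 to 6648777, minus strand) differed in order. WT levels were 55.3, 75.5, 84.6, and 57.0 CPM, against 49.2, 80.5, 60.6, and 53.6 CPM in TKO. The WT border zone was the highest of the 8 libraries, and there the TKO ratio was 0.717 (0.675 to 0.761). The infarct zone ratio was 1.07 (1.01 to 1.12) with TMM factors and 0.869 with total counts, so its direction depended on the scaling. Markers of fibroblasts also stood lower in the TKO border zone, at 1598 CPM summed over 7 genes against 2981 CPM in WT, and 7 of 7 macrophage and leukocyte markers did as well. Their part in the *Pfkp* ratio was not tested.

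The make-up of the PFK subunits can be read inside a library, where no scaling enters. There were 6.08 *Pfkp* counts per 100 *Pfkm* counts (5.77 to 6.41) in the WT left ventricle and 5.42 (5.12 to 5.74) in the TKO left ventricle. Infarct zone values were 38.3 (36.8 to 39.9) in WT and 19.5 (18.8 to 20.3) in TKO. The border zone gave 14.5 in WT and 7.99 in TKO, and the remote zone gave 8.38 and 6.66. The order of the regions was the same in both genotypes, infarct, border, remote, and left ventricle, and the TKO value was the lower in 4 of 4 regions. *Pfkl* counts per 100 *Pfkm* counts were likewise highest in the infarct zone, at 37.1 in WT and 23.0 in TKO, against 14.6 and 15.7 in the left ventricle. As shares per transcript length, *Pfkm* made up 77.4% of the PFK subunit transcripts of the WT left ventricle, 46.9% of those of the WT infarct zone, and 61.4% of those of the TKO infarct zone. These shares depend on the length taken for each gene, since the annotation holds fragmentary transcripts of *Pfkl* and *Pfkp*, and over the lengths tried they reached 91.9%, 78.0%, and 85.9%. The same order of the 3 libraries held under every length.

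**Figure D2:**
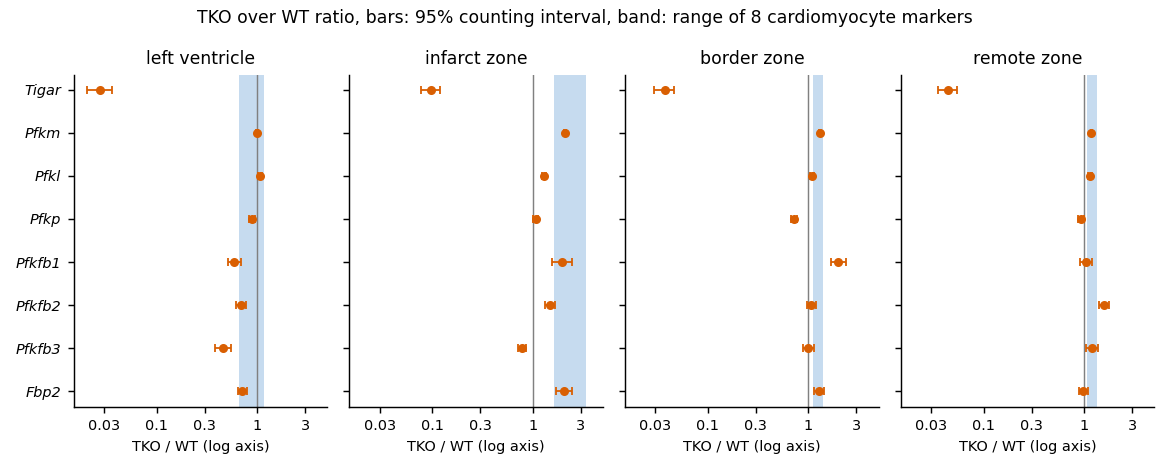
TKO over WT ratio (horizontal axis, logarithmic) of *Tigar* and the 7 counterparts that passed the filter, in each of the 4 regions. Points are ratios of TMM-scaled counts, bars are exact 95% counting intervals, and the blue band spans the ratios of the 8 cardiomyocyte markers. *Tigar* sits between 0.0275 and 0.0966, and *Pfkm*, *Fbp2*, and *Pfkfb1* lie inside the band in the infarct zone. *Pfkfb1* lies outside it in every other region.

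The PFKFB enzymes make and remove the activator of PFK, and in the left ventricle the 3 genes that passed the filter had lower levels in TKO. *Pfkfb1* (ENSMUSG00000025271, chromosome X from 150588229 to 150643878, plus strand), the liver and muscle PFKFB, was at 17.6 CPM in the WT and 10.4 CPM in the TKO left ventricle. WT and TKO levels were 3.10 and 6.01 CPM for the infarct zone, 7.04 and 13.9 CPM for the border zone, and 12.8 and 13.3 CPM for the remote zone. The ratios by region were 0.592 (0.508 to 0.688), 1.94 (1.56 to 2.43), 1.98 (1.67 to 2.34), and 1.04 (0.904 to 1.20). Its direction therefore turned between the left ventricle and the infarct and border zones.

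*Pfkfb2* (ENSMUSG00000026409, chromosome 1 from 130689182 to 130729253, minus strand) was at 26.1 CPM in the WT and 18.0 CPM in the TKO left ventricle, giving a ratio of 0.687 (0.610 to 0.773). Infarct zone levels were 12.1 and 17.8 CPM, border zone levels 26.2 and 28.0 CPM, and remote zone levels 17.1 and 26.8 CPM. The remote zone ratio of 1.57 (1.41 to 1.76) was its highest, and the border zone ratio of 1.07 (0.969 to 1.18) did not depart from 1 beyond counting error.

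*Pfkfb3* (ENSMUSG00000026773, chromosome 2 from 11471433 to 11554077, minus strand), the inducible PFKFB with a strongly dominant kinase, showed the lowest left ventricle ratio of the counterparts. It was at 14.4 CPM in WT and 6.53 CPM in TKO, a ratio of 0.454 (0.377 to 0.545). It was at 30.3 and 23.8 CPM in the infarct zone (ratio 0.786, 0.720 to 0.858), and these 2 libraries were the highest of the 8. The border zone libraries were level at 16.03 and 16.01 CPM (ratio 0.999, 0.879 to 1.14), and the remote zone had 12.0 and 14.4 CPM (ratio 1.20, 1.04 to 1.38).

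*Pfkfb4* (ENSMUSG00000025648, chromosome 9 from 108991778 to 109032228, plus strand), best known from testis, was too low to test. It had 0 counts in the WT left ventricle and 29 in the TKO left ventricle, at least 10.2-fold higher with 3 counts taken as the floor of a library, and 7.80-fold by the lower limit of the counting interval. There were 0 and 9 counts in the infarct zone, at least 3.55-fold higher in TKO against that floor and 2.34-fold by the lower limit, and 0 and 0 in the border zone. The order in the remote zone was the opposite, with 37 counts in WT and 7 in TKO, a ratio of 0.191 (0.0719 to 0.434). Its highest level in any library was 1.22 CPM, and the 2 libraries with the most counts belonged to different genotypes and regions.

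*Fbp2* (ENSMUSG00000021456, chromosome 13 from 62836877 to 62858422, minus strand) removes the phosphate that PFK adds. It was at 33.9 CPM in the WT and 24.1 CPM in the TKO left ventricle, giving a ratio of 0.712 (0.642 to 0.789). Its infarct zone levels were 4.18 and 8.56 CPM, a ratio of 2.05 (1.69 to 2.48), and the border zone had 20.0 and 25.3 CPM (ratio 1.27, 1.14 to 1.41). The remote zone was level, at 25.4 and 25.0 CPM (ratio 0.986, 0.891 to 1.09). The liver fructose bisphosphatase *Fbp1*, which is not among the 9 genes, had 0 to 4 counts per library.

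Adipocyte markers separated the left ventricle libraries in the same direction. *Adipoq* (adiponectin) had 370 counts in WT and 6 in TKO there, a ratio of 0.0172 (0.00626 to 0.0377), *Lep* (leptin) had 45 and 0, and *Plin1* (perilipin of fat droplets) had 34 and 0. The last of the 4 markers, *Fabp4*, a fatty acid carrier that endothelial cells also express, had a ratio of 0.726 (0.710 to 0.743). All 4 were thus lower in the TKO left ventricle. *Plin1* was at 0 in the other 6 libraries, and *Adipoq* had 17 to 109 counts in them. *Adipoq* was also lower in TKO in the infarct, border, and remote zones, with ratios of 0.608, 0.473, and 0.614. *Fabp4* was at 1.32, 0.933, and 0.849 there. *Lep* had 24, 8, and 1 counts in WT and 2, 1, and 2 in TKO. In those zones the ratios of *Fbp2* were 2.05, 1.27, and 0.986, and those of *Pfkfb1* were 1.94, 1.98, and 1.04. The 4 markers summed to 256 to 685 CPM in WT and 336 to 526 CPM in TKO libraries. Their part in the lower PFKFB and *Fbp2* levels of the TKO left ventricle was not tested.

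All 9 genes had promoter windows in RefSeq (GRCm38.p6), 18 windows of 250 bases before a start. They were searched for CACGTG, a palindrome that reads the same on both strands. It is a form of the E-box that MYC and the carbohydrate response factors are known to bind, and other forms were not searched. It was present in 4 of 18 windows, those of *Pfkfb2*, *Pfkfb3*, *Pfkm*, and *Fbp2*, and in 6.02% of all 32851 windows of that length. By gene it was present in 4 of 9, and the other windows of *Pfkfb2*, *Pfkfb3*, and *Pfkm* held none. The share of all genes with a match was not counted. A gene with more windows has more places for a match, so 4 of 9 cannot be set against the share of windows. *Pfkfb2*, *Pfkfb3*, and *Fbp2* had lower levels in the TKO left ventricle, differences that no test called, and *Pfkm* was level there (ratio 0.997). The part of CACGTG in these levels was not tested. The stretches of all 4 genes are shown, with CACGTG in capitals and bases inside annotated exons left out. They lie at chr1:130715822-130716071 (minus strand), chr2:11502102-11502340 (minus strand), chr15:98092339-98092588 (plus strand), and chr13:62858423-62858650 (minus strand), and each is written 5′ to 3′.
Pfkfb2: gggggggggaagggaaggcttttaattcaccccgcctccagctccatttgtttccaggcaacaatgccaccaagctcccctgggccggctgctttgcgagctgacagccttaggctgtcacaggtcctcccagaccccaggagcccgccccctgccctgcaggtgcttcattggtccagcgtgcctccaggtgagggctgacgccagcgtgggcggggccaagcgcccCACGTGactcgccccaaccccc
Pfkfb3: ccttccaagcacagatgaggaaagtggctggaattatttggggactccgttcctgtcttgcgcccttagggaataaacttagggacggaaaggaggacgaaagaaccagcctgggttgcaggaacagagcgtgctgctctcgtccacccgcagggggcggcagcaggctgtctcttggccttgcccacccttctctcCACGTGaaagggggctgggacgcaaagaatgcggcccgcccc
Pfkm: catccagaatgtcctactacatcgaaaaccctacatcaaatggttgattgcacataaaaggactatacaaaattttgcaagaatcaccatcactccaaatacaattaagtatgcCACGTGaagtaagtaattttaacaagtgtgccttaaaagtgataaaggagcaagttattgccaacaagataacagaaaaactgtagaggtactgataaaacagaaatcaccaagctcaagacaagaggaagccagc
Fbp2: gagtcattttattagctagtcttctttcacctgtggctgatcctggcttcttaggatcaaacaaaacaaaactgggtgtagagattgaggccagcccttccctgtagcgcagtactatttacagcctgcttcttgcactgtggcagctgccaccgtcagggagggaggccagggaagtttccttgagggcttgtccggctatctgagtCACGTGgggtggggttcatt
CACGTG began 22 bases before the start in *Pfkfb2*, 53 in *Pfkfb3*, 136 in *Pfkm*, and 42 in *Fbp2*. A match of these letters is a description and not a bound site, and for *Pfkfb1*, which moved with *Pfkfb2* and *Pfkfb3* in the left ventricle, the 4 windows held no CACGTG.

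Counting members past 1.5-fold in each region sets these ratios against all genes. In the left ventricle 2 of the 7 counterparts tested, *Pfkfb1* and *Pfkfb3*, were at least 1.5-fold lower in TKO, where 8.71% of all genes were, and 0 were higher, where 5.71% of genes were. For the infarct zone 3 of 7, *Pfkm*, *Pfkfb1*, and *Fbp2*, were at least 1.5-fold higher, against 10.1% of genes, and 0 were lower, against 6.15%. The border zone had 1 of 7 higher (*Pfkfb1*, against 3.62% of genes) and 0 lower (8.31%). The remote zone had 1 of 7 higher (*Pfkfb2*, against 3.13%) and 0 lower (6.32%). *Tigar* was past 1.5-fold lower in 4 of 4 regions. With total counts in place of TMM factors the median ratio of all genes in the infarct zone moved by -0.29 on the log2 scale, and *Pfkfb3* then joined the genes at least 1.5-fold lower there, at 0.641.

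Whether the genotype difference in 1 region departed from that in the other 3 was tested for each region with edgeR. For the left ventricle the departure was -1.40 on the log2 scale for *Pfkfb1* (SE 0.398, adjusted p = 0.189), -0.97 for *Pfkfb2* (SE 0.245, adjusted p = 0.159), -1.10 for *Pfkfb3* (SE 0.270, adjusted p = 0.156), and -0.89 for *Fbp2* (SE 0.365, adjusted p = 0.305). None of the 7 counterparts was called, 3 had an unadjusted p under 0.05 where 2179 of the 12999 genes had, and DESeq2 called 0 with 4 at an unadjusted p under 0.05, where 1193 genes had. The same test called 84 genes, 0.646% of those tested, 29 with a positive and 55 with a negative departure, or 143 and 132 with total counts. The lower PFKFB and *Fbp2* levels of the TKO left ventricle thus did not pass the threshold as a difference between regions.

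For the infarct zone the departure was 0.86 on the log2 scale for *Pfkm* (SE 0.201, adjusted p = 0.41) and 1.09 for *Fbp2* (SE 0.355, adjusted p = 0.52). edgeR called 0 of the 7 counterparts, with 2 at an unadjusted p under 0.05 as against 1018 genes, and 1 gene in all, 0.00769% of those tested. The Wald test of DESeq2 called *Pfkm* (adjusted p = 0.0325) and *Tigar* (departure 1.43, adjusted p = 0.0398) among 154 genes. The adjusted p of *Pfkm* ranged from 0.0325 to 0.594 over the 6 alternatives. Departures of the border and remote zones were called for 0 counterparts and 0 genes in each, 0% of those tested. There 0 counterparts had an unadjusted p under 0.05, against 196 genes for the border and 223 for the remote zone, and DESeq2 called 0 counterparts and 7 and 12 genes.

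Between regions the counterparts fell into 2 directions. Against the left ventricle, with both genotypes, *Fbp2* fell by 2.23 on the log2 scale in the infarct zone (adjusted p = 0.00226), *Pfkfb1* by 1.70 (adjusted p = 0.0157), *Pfkm* by 1.65 (adjusted p = 0.00301), and *Pfkl* by 0.72 (adjusted p = 0.00294), by edgeR's quasi-likelihood test. *Pfkfb3* rose by 1.40 (adjusted p = 0.00855) and *Pfkp* by 0.59 (adjusted p = 0.0151). These are 4 and 2 of the 7 counterparts tested, where 28.6% of all genes were called lower and 28.2% were called higher. *Pfkfb2*, at -0.59 (adjusted p = 0.114), and *Tigar*, at -0.86 (adjusted p = 0.0987), were not called. With total counts *Pfkl* was at -0.04 (adjusted p = 0.763), and 7869 genes were called higher and 1084 lower in place of 3670 and 3715.

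Several of these calls rested on 1 library. *Pfkfb1* lost its call without the WT left ventricle (adjusted p = 0.0531) or the WT infarct zone (0.123). *Pfkfb3* lost it without the WT infarct zone (0.0551), and *Pfkp* without the TKO infarct zone (0.08). *Pfkfb2* gained a call without the TKO left ventricle (-1.05, adjusted p = 0.00648), and *Tigar* without the TKO left ventricle (-1.24, adjusted p = 0.0265) or the TKO infarct zone (-1.39, adjusted p = 0.0048). *Pfkm* and *Fbp2* stayed called in 10 of 10 alternatives.

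In the border zone 0 of 7 counterparts were called against the left ventricle (93 genes, 0.715% of those tested), with 1 at an unadjusted p under 0.05 by edgeR, as against 2333 genes, and 0 called by DESeq2. That one was *Pfkp*, at 1.38-fold (1.08 to 1.77, adjusted p = 0.195). The remote zone had 0 counterparts and 0 genes called, 0% of those tested, with 1378 genes at an unadjusted p under 0.05, and DESeq2 called 162 genes and 0 counterparts. The remote zone estimates of the 7 counterparts lay between -0.31 (*Pfkm*) and 0.39 (*Pfkfb3*) on the log2 scale.

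**Figure D3:**
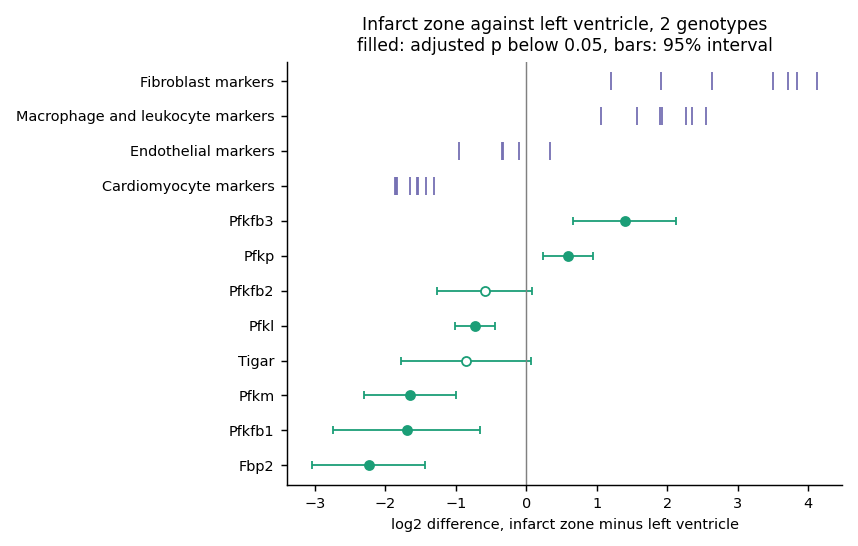
Log2 difference between the infarct zone and the left ventricle (horizontal axis) of *Tigar* and the 7 counterparts, with 95% intervals from edgeR over 2 libraries per region, filled where the adjusted p was below 0.05. Vertical ticks are single marker genes of 4 cell types. *Fbp2*, *Pfkfb1*, and *Pfkm* lie between -2.23 and -1.65, near the cardiomyocyte markers at -1.86 to -1.31, and *Pfkfb3* and *Pfkp* lie above 0.

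Markers of the cell types moved with these regional differences. In the infarct zone 8 of 8 cardiomyocyte markers were called lower than in the left ventricle (-1.86 to -1.31 on the log2 scale), 7 of 7 fibroblast markers higher (1.21 to 4.13), and 7 of 7 macrophage and leukocyte markers higher (1.06 to 2.55). Without the WT infarct zone 6 of 8 cardiomyocyte markers were called lower. Between genotypes, 8 of 8 cardiomyocyte markers of the infarct zone had TKO levels at least 1.5-fold above WT (1.64 to 3.41), a range that holds the ratios of *Pfkm*, *Fbp2*, and *Pfkfb1*. The marker ranges of the left ventricle (0.666 to 1.16) and border zone (1.11 to 1.38) held *Pfkm* and *Fbp2* but not *Pfkfb1* (0.592 and 1.98). That of the remote zone (1.06 to 1.36) held *Pfkm* but neither *Fbp2* (0.986) nor *Pfkfb1* (1.04). None of the markers of these 3 lists was at 0 in any library. Their part in the members' differences was not tested.

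Skeletal muscle markers set the WT infarct and border zones apart from the other libraries. *Myh4*, a fast myosin heavy chain of skeletal muscle, had 1486 counts in the WT and 1 in the TKO infarct zone, and 193 and 2 in the border zone, against 2 to 6 in the other 4 libraries. *Myh1*, another fast myosin, had 1263 and 10 counts in the infarct zone and 157 and 8 in the border zone. *Tnnt3*, the fast troponin T, had 1414 and 50 counts in the infarct zone and 205 and 17 in the border zone. Of the 6 markers 4 were at least 1.5-fold lower in TKO in each of these zones, whereas *Ckm* and *Acta1*, which the heart also expresses, were past 1.5-fold in the opposite direction in the infarct zone. The 6 summed to 526 to 1512 CPM in WT and 828 to 2060 CPM in TKO libraries, and none was at 0. Against the left ventricle *Myh4* was at 6.97 on the log2 scale in the infarct zone (adjusted p = 0.0283, edgeR's quasi-likelihood test), and 3 of 6 markers were called higher and 1 lower, which became 0 of 3 higher and 1 lower without the WT infarct zone. *Pfkm*, *Fbp2*, and *Pfkfb1* are muscle genes, and the part of skeletal muscle transcripts in their values was not tested. Without the WT infarct zone *Pfkm* was still called lower there than in the left ventricle, at -1.23 (adjusted p = 0.00642), and *Fbp2* at -1.71 (adjusted p = 0.0102), while *Pfkfb1* lost its call as given above.

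Member counts set against the summed counts of the 8 cardiomyocyte markers of the same library give a value free of scaling. *Pfkm* had 204, 218, 190, and 197 counts per 10000 marker counts in WT and 213, 210, 195, and 201 in TKO. It stayed between 190 and 218 in all 8 libraries, whereas its CPM spanned a 4.62-fold range. *Fbp2* was at 7.61, 4.64, 6.51, and 7.36 in WT and at 5.67, 4.37, 6.50, and 6.26 in TKO. On this measure the WT and TKO infarct zones were close, and both lay below the other 6 libraries. *Pfkfb1* was between 2.30 and 3.96, lowest in the WT border zone (2.30) and the TKO left ventricle (2.45).

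*Pfkp*, *Pfkl*, *Pfkfb3*, *Pfkfb2*, and *Tigar* were higher against the marker counts in the infarct zone than in the left ventricle, and *Pfkfb4* was not. *Pfkp* went from 12.4 in the WT left ventricle to 83.7 in the WT infarct zone, and from 11.5 to 41.1 in TKO. *Pfkl* was at 29.9 and 81.0 in WT, and at 33.4 and 48.3 in TKO. *Pfkfb3* was at 3.23 and 33.5 in WT and at 1.53 and 12.1 in TKO, and *Pfkfb2* was at 5.87 and 13.4 in WT and at 4.22 and 9.11 in TKO. WT *Tigar* was at 16.1 in the left ventricle and 27.9 in the infarct zone, and the residual TKO *Tigar* counts were at 0.463 and 1.24. The WT infarct zone was the highest library for all 5 genes, and it also had the lowest marker sum. That sum was 9027 CPM, against 44539 CPM in the WT left ventricle. A gene that fell less than the markers rises on this measure. In CPM *Tigar* (71.7 to 25.2), *Pfkl* (133 to 73.1), and *Pfkfb2* (26.1 to 12.1) fell from the WT left ventricle to the WT infarct zone. *Pfkfb3* (14.4 to 30.3) and *Pfkp* (55.3 to 75.5) rose.

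**Figure D4:**
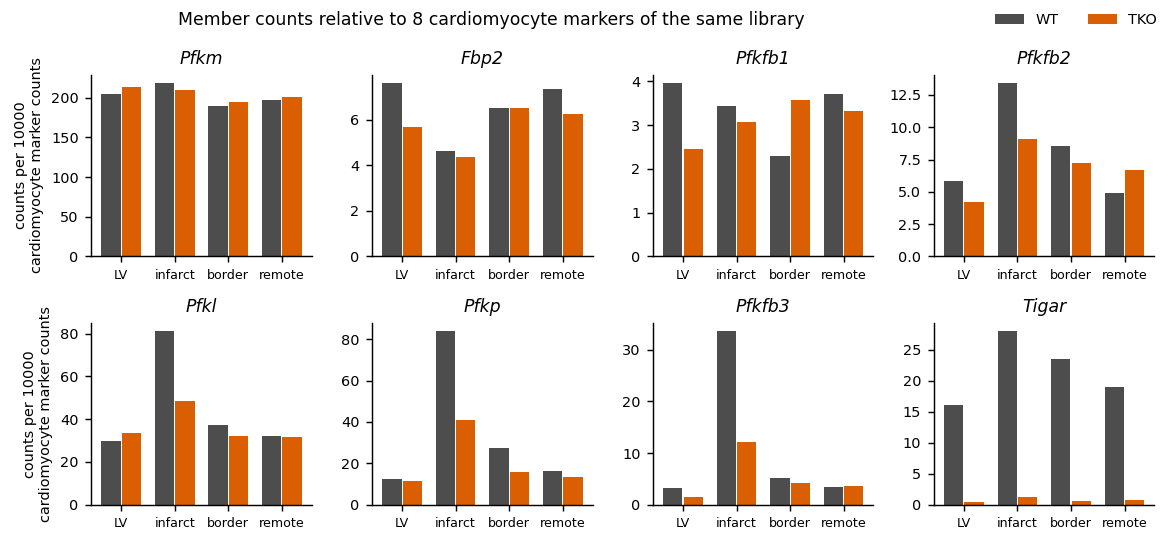
Counts of each gene per 10000 counts of 8 cardiomyocyte markers in the same library (vertical axis, a separate scale for each gene), by region, WT in grey and TKO in orange, 1 library per bar. *Pfkm* stays between 190 and 218, while *Pfkp*, *Pfkl*, and *Pfkfb3* are highest in the WT infarct zone, where the marker sum was lowest.

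Within the PFKFB family the balance of *Pfkfb3* to *Pfkfb2* also differed by region. There were 55.0 *Pfkfb3* counts per 100 *Pfkfb2* counts (48.5 to 62.3) in the WT and 36.3 (30.3 to 43.4) in the TKO left ventricle. The WT infarct zone had 1280 *Pfkfb3* and 512 *Pfkfb2* counts, whose interval per 100 was 225 to 278, and the TKO infarct zone had 133 per 100 (120 to 148). The border zone had 61.1 and 57.2, and the remote zone 70.5 and 53.8. The value was lower in TKO in 4 of 4 regions, and the 2 intervals overlapped in the border zone. Summed over the 4 PFKFB genes, the TKO over WT ratios were 0.620 (0.571 to 0.672), 1.05 (0.987 to 1.13), 1.18 (1.10 to 1.26), and 1.27 (1.18 to 1.37) by region. For the 3 PFK genes the sums gave 1.0002 (0.984 to 1.02), 1.70 (1.66 to 1.73), 1.21 (1.19 to 1.23), and 1.16 (1.14 to 1.18).

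The surrounding steps of glycolysis and the pentose phosphate branch were read from a list of 23 genes, of which 22 passed the filter. Across regions 0 of 22 were called between genotypes, with *G6pdx* (glucose phosphate dehydrogenase, entry to the pentose phosphate branch) at 0.797-fold (0.697 to 0.913, adjusted p = 0.192). The median over the list was 0.17 on the log2 scale, and 19 of 22 estimates were positive, where the median of all genes tested was -0.0024. Of the cardiomyocyte markers 8 of 8 were positive (median 0.38), and of the fibroblast markers 0 of 7 (median -0.46). The part of cell composition in the list's differences was not tested. For the infarct zone 9 of 22 were at least 1.5-fold higher in TKO, where 10.1% of all genes were, among them *Aldoa* (aldolase of muscle, the step after PFK) at 1.64 (1.62 to 1.66), *Hk2* (hexokinase) at 1.80 (1.72 to 1.88), *Slc2a4* (the insulin-responsive glucose transporter) at 2.06 (1.97 to 2.15), and *Eno3* (muscle enolase) at 2.23 (2.17 to 2.29). Between regions 15 of 22 were called lower in the infarct zone and 2 were called higher, the latter being the pentose phosphate genes *G6pdx* (0.92 on the log2 scale, adjusted p = 0.00144) and *Tkt* (0.87, adjusted p = 0.00662). Of all genes 28.6% were called lower and 28.2% higher there. With total counts 9 of 22 were called lower and 8 higher, and without the WT infarct zone 12 were lower and 2 higher.

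Genes next to *Tigar* were read because they share its chromosome segment. Of the 5 nearest on each side, *Ccnd2* (cyclin D2), 15605 bases away, had ratios of 0.630, 0.480, 0.317, and 0.359, lower by at least 1.5-fold in 4 of 4 regions (adjusted p across regions = 0.106). *Fgf23*, 3708 bases away on the other side, had 1, 5, 2, and 2 counts in WT and 11, 21, 5, and 12 counts in TKO. *Fgf6*, the next gene, had a ratio of 4.58 (2.87 to 7.59) in the infarct zone and of 1.03 to 1.80 elsewhere (adjusted p across regions = 0.336).

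The genes whose levels ran most closely with members other than *Pfkfb3* and *Pfkfb4* over the 8 libraries were read from log2 CPM, as a description in which 4 points share a genotype and 2 share a region. Pearson's r was highest for *A530016L24Rik* with *Pfkm* (0.999), *Naa35* with *Pfkl* (0.998), *Pnpla8* with *Fbp2* (0.998), *Tppp* with *Pfkfb1* (0.996), *Robo4* with *Pfkfb2* (0.987), *Dchs1* with *Pfkp* (0.955), and *Cnot6l* with *Tigar* (0.935). Among the members themselves *Pfkm* ran with *Pfkl* (0.984), *Fbp2* (0.972), and *Pfkfb1* (0.935), and against *Pfkfb3* (-0.82) and *Pfkp* (-0.71). *Tigar* had an r between -0.18 and 0.25 with each of the 7 counterparts. The annotated spans of *Pfkfb1*, *Pfkfb2*, *Pfkm*, and *Pfkp*, introns included, each overlap a gene of the other strand (*Apex2*, *Yod1*, *Senp1*, and *Pitrm1*). These genes are also in the table. Whether exons of these pairs overlap was not examined. Only reads from sequence shared by transcripts of both genes could be mixed, where the counting did not use strand.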

How the data were processed

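RNA from 8 heart samples (2 genotypes, 4 regions) was analysed as 1 library each. Per the labels and the study's methods, the authors trimmed reads with Trim Galore 0.6.5, estimated transcript counts with kallisto 0.46 against mm10 (GRCm38), and took sums per gene with tximport. Deposited values are estimated counts, not normalized, and were rounded to whole numbers before use. All 8 columns were matched to a sample by name. From them, TMM factors, CPM, and edgeR 4.0.16 quasi-likelihood tests (R 4.3.3) were computed over 12999 genes (mean CPM 1 or more), with Benjamini-Hochberg adjustment over those genes, a threshold of 0.05, and region as a block. DESeq2 1.42.0 was the alternative test. The floor was 3 counts, and a prior count of 2 was used for counts of genes past 1.5-fold. Gene positions and lengths came from GENCODE M21, promoter windows from RefSeq. Scripts were tested on simulated data. Members, lists, and rules (all 9 members, the 23 pathway genes, 5 genes on each side of *Tigar*, the 3 most similar genes per member, of which the first is named) were chosen with earlier results of these data known. Values of single genes that these rules would name are in some cases not reported here. Other alternatives were total counts, DESeq2 size factors, TMM over the 2 libraries compared, mitochondrial DNA-encoded genes left out, other filters, and each library or region left out. Figures were drawn with matplotlib 3.10.9 in Python 3.11.15.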

Additional observations from a re-analysis of the deposited data

How the results depend on the processing

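No paired analysis was possible because each group holds 1 library, so the groups compared share fewer than 2 replicate numbers, and region was the block instead. Between genotypes, 0 counterparts were called across regions in 11 of 11 alternatives. The genes called there, 18 in the main test, numbered 56 with total counts, 342 with DESeq2, 8 without the region block, and 3 to 80 with 1 region left out. Genes called between the infarct zone and the left ventricle numbered 4716 to 7243 with 1 library left out (4716 without the WT infarct zone). Border zone calls, 93 in the main test, numbered 200 with total counts, 141 with a mean CPM of at least 5, 576 with DESeq2, and 2 to 388 with 1 library left out, and remote zone calls, 0 in the main test, numbered 18, 1, and 162 in that order, 3 without a filter, and 0 to 65 with 1 library left out. Where a library was left out, the lone library of that region was assumed to vary like the others. Departures of the left ventricle, 84 genes, became 275 with total counts, 143 with the stricter filter, and 280 with DESeq2. Departures of the infarct zone went from 1 to 154 genes with DESeq2, counterparts among them from 0 to 1. Those of the border zone went from 0 to 5 with total counts and 7 with DESeq2, and those of the remote zone from 0 to 12 with DESeq2. At 2-fold in place of 1.5-fold, 1 counterpart was lower in the left ventricle (*Pfkfb3*, ratio 0.454) and 0 were higher in the border and remote zones. *Pfkm* (2.09) and *Fbp2* (2.05) stayed higher in the infarct zone. The share of all genes past 2-fold is not given here, so these counts have no background. At 1.5-fold with total counts, *Pfkfb3* was lower in the infarct zone, as given above. The infarct zone ratio of *Pfkp* turned from 1.07 to 0.869 with total counts. The share of *Pfkm* was 91.9%, 86.6%, and 82.8% in the WT left ventricle with total exonic length, the longest coding transcript, and no division by length, 78.0%, 64.4%, and 57.0% in the WT infarct zone, and 85.9%, 76.2%, and 70.2% in the TKO infarct zone. The share of *Pfkp*, 7.96%, 30.4%, and 20.3% in those libraries in the main setting, was 1.39%, 3.66%, and 5.04%, then 7.46%, 17.2%, and 21.9%, then 4.18%, 10.3%, and 13.7%. Of 165 single ratios recomputed, 156 moved by less than their counting interval, 8 moved by more, and 1 reversed. With total counts the TKO excess in the infarct zone shrank. All ratios of that zone change by the same factor, set by its TMM factors of 1.54 (WT) and 1.26 (TKO). WT and TKO levels there were then 304 and 518 CPM for *Pfkm* and 6.45 and 10.8 CPM for *Fbp2*. For *Pfkfb2* they were 18.7 and 22.4 CPM, and for *Pfkl* 113 and 119 CPM. In the border zone *Pfkm* was then at 557 and 677 CPM. Beyond the shares, whose alternatives differ by length alone, and the ratios with total counts, which differ by scaling alone, the cause was not tested. *Pfkfb4* and *Fbp1* were limited by depth, and the other members had at least 51 counts in every library.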
